A study of Homo sapiens with 16 samples.

Results

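PC9 and MDA231 are human cancer cell lines, PC9 from a lung cancer and MDA231 from a breast cancer, and the study holds a LeptoM derivative of each, a leptomeningeal metastatic subline. The comparison here set PC9 LeptoM cells with the control hairpin shCTL against MDA231 LeptoM cells with the same hairpin, with 2 libraries in each group. Its libraries were chosen by their labels alone, and they are 4 of the 16 poly(A) RNA-seq libraries of the series. The hairpins were delivered by lentivirus, and the cells were grown in dishes, not taken from meninges. The other libraries were 2 of each parental line, which carried no hairpin, and 2 with each of the LCN2 hairpins shLCN2_1 and shLCN2_2 in each LeptoM line. They entered the fit for the spread, and are described here only where they bear on the 2 control groups. Each LeptoM line is 1 derivative. The labels do not say whether replicates came from separate cultures, so every p-value below measures only the spread between these libraries. Line, tumour of origin and deposited table coincide in this comparison and cannot be told apart.

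Leptomeningeal metastasis is the growth of tumour cells in the cerebrospinal fluid and on the membranes around the brain and spinal cord, a space that holds little iron and few nutrients. The product of LCN2, lipocalin-2, is secreted and captures iron bound to siderophores, and inflammatory cytokines acting through NF-kB are known to induce it. Carcinoma cells keep to varying degrees the junctions and keratins of an epithelium, or take on a mesenchymal state with vimentin in place of E-cadherin, in which ZEB and SNAI proteins repress epithelial genes.

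Epithelial genes, antioxidant genes and LCN2 were higher in PC9 LeptoM. Most mesenchymal genes and cytokines of the lists examined were higher in MDA231 LeptoM. Nuclear genes of the respiratory chain and ribosomal protein genes were mostly close, but mitochondrially encoded transcripts were not. Levels are given as reads scaled to a library total of 1000000 gene reads (RPM), and differences as log2 differences, PC9 minus MDA231, on log2(RPM + 0.25), a scale that understates the difference of a gene near 0. A gene was called where limma's Benjamini-Hochberg adjusted p was under 0.05 and the difference was at least 1 in size, that is 2-fold. It was called close where the whole 95% interval of the difference lay between -1 and 1. Of 12852 genes tested, 2679 (20.8%) were higher in PC9 LeptoM, 2445 (19%) were higher in MDA231 LeptoM, 5798 (45.1%) were close and 1930 were neither. The counts of gene lists below are to be read beside these shares. A difference of at least 4 in size was held by 393 of the genes higher in PC9 and by 304 of those higher in MDA231.

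The difference between the lines was far larger than that between replicates. Its SD over genes was 1.82, against an SD of 0.127 for replicate 1 minus replicate 2 in PC9 LeptoM and of 0.197 in MDA231 LeptoM. Across genes, Pearson's r of the log2 levels was 0.9985 between the PC9 replicates, 0.9969 between the MDA231 replicates and 0.7135 between the lines. These r values describe 12852 genes, which are not independent replicates. The 4 libraries held 41751486 to 47457769 gene reads, so that 3 reads stood for 0.0632 to 0.0719 RPM. The MDA231 parental libraries were shallower, at 11592790 and 11613984 gene reads, where 3 reads stood for 0.258 to 0.259 RPM. Limits and counting intervals given below cover counting error only. The difference also rose with the GC content of the gene (Spearman's rho 0.335 across genes). Replicate 1 minus replicate 2 followed GC content as well, with a rho of 0.357 in PC9 LeptoM and 0.684 in MDA231 LeptoM. As an alternative, the GC trend of each library relative to the mean of its own line was removed. Then 2462 genes were higher in PC9 and 2416 higher in MDA231. That step leaves a GC trend between the means of the lines in place, so its part in the line difference was not tested.

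**Figure D1:**
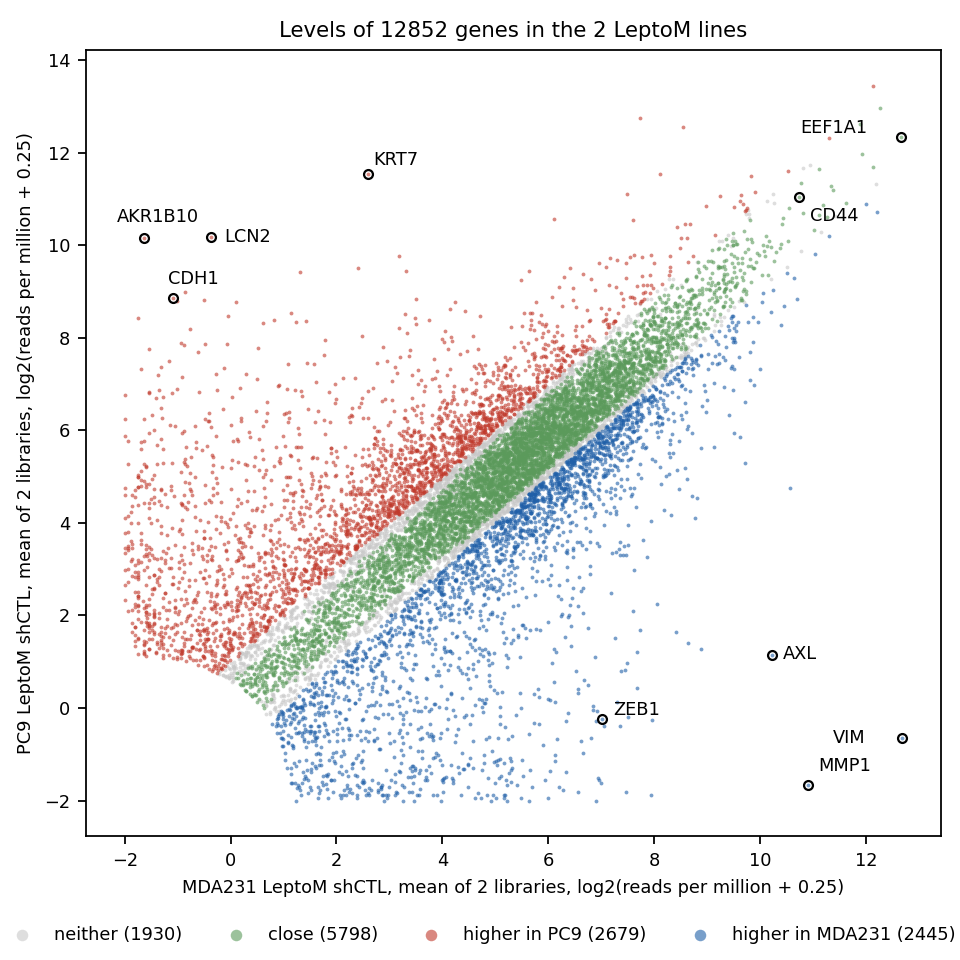
Mean log2(RPM + 0.25) of 12852 genes in MDA231 LeptoM shCTL (x axis) and PC9 LeptoM shCTL (y axis), 2 libraries each, 1 point per gene coloured by its call. Genes close between the lines lie along the diagonal, and LCN2, CDH1, KRT7 and AKR1B10 lie far above it while VIM, AXL, ZEB1 and MMP1 lie far below it.

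LCN2 itself was abundant in 1 of the lines only. It stood at 1171 and 1149 RPM in the PC9 LeptoM libraries and at 0.618 and 0.431 RPM in those of MDA231 LeptoM. The groups did not overlap, and the log2 difference was 10.56 (SE 0.27, limma adjusted p = 9.92e-12). The parental lines were already far apart, at a mean of 503.5 RPM in PC9 and 0.172 RPM in MDA231, a value under the level of 3 reads. The change in the line difference from parental to LeptoM was 0.31 and was not called (limma adjusted p = 0.523). That does not show equal differences, and with MDA231 so near 0 their size is uncertain.

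The regulators through which cytokines are known to reach LCN2 included genes higher in either line and close genes. Of 24 tested genes of a list of LCN2 and its transcriptional inputs, 5 were higher in PC9, 7 were higher in MDA231 and 9 were close. Over all genes 20.8% were higher in PC9, 19% higher in MDA231 and 45.1% close. The median log2 difference was -0.15 against -0.02 over all genes, and the median absolute difference was 0.99 against 0.78. RELA, the activating subunit of NF-kB, stood at 99.6 and 95.3 RPM in PC9 and at 96.4 and 83.3 RPM in MDA231, close at 0.12 (SE 0.18). STAT3, the transcription factor downstream of IL6-type cytokines, was close at -0.70 (SE 0.10). Receptors differed in both directions. IL1RL1 (4.41), IL17RC (1.64) and IL6R (1.44), receptor chains for IL33, IL17 and IL6, were higher in PC9. TLR2 (-3.86), TNFRSF1B (-3.64) and IL6ST (-2.03), a bacterial lipopeptide receptor, a TNF receptor and the shared IL6-type signalling chain, were higher in MDA231.

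**Figure D2:**
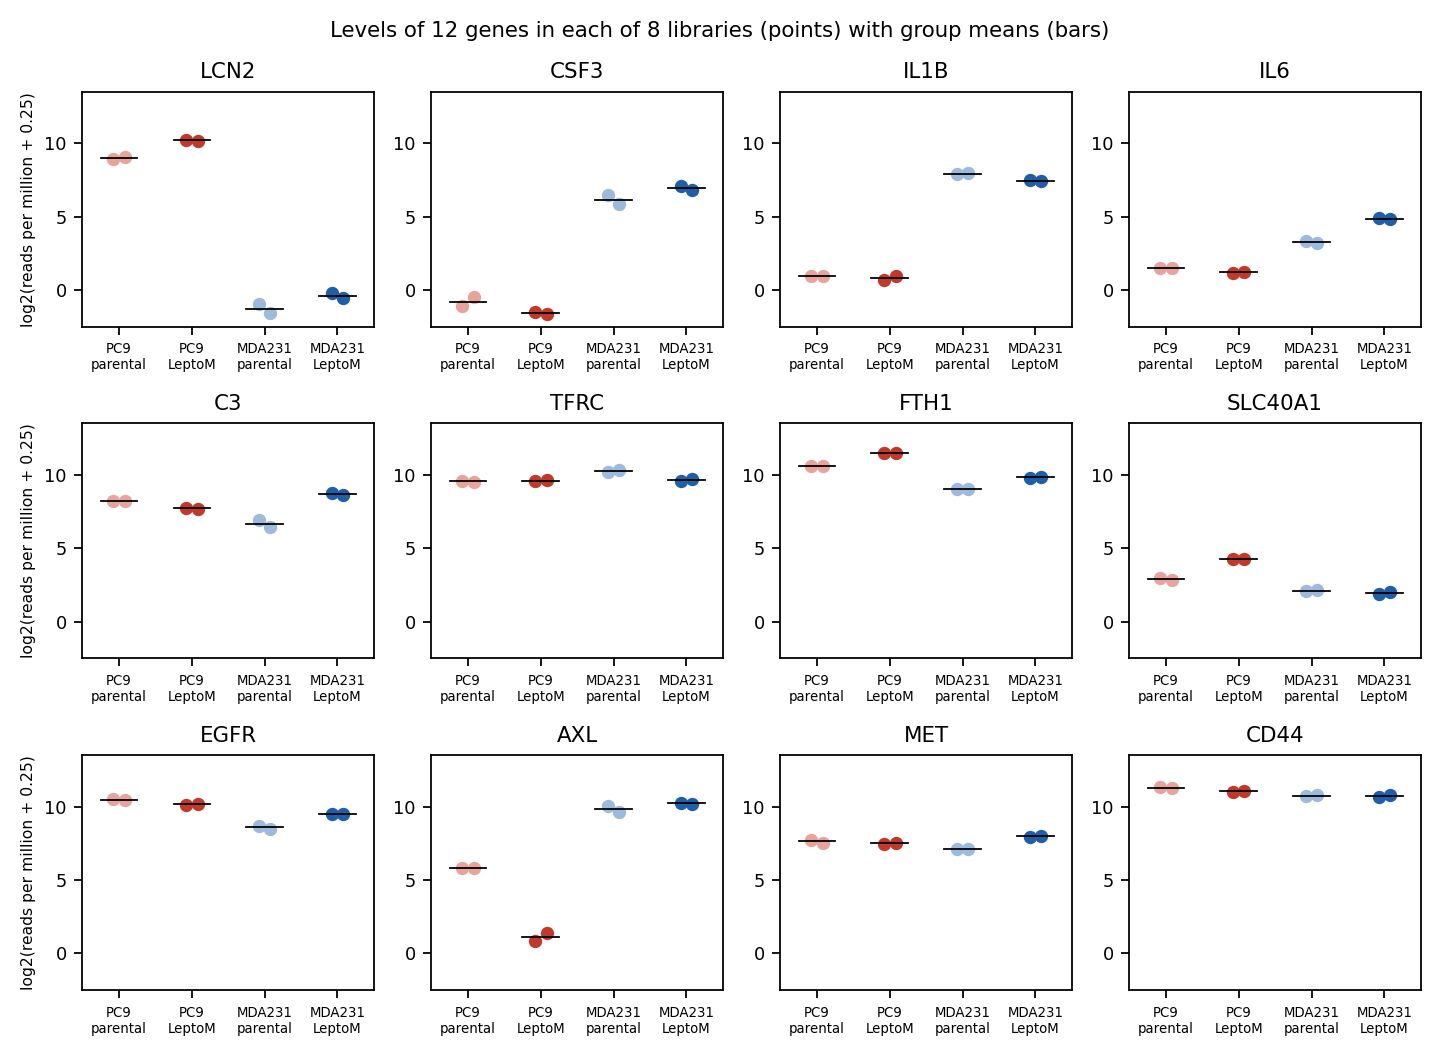
Levels of 12 genes as log2(RPM + 0.25) (y axis) in the 2 libraries of each of 4 groups (x axis), with points for libraries and horizontal bars for group means. LCN2 is high in both PC9 groups and CSF3, IL1B and IL6 in both MDA231 groups, while TFRC, MET and CD44 lie at like levels in the LeptoM lines.

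The epithelial genes were nearly all higher in PC9 LeptoM. Of 42 genes of epithelial junctions, keratins and their regulators, 35 were listed in both deposited tables and passed the minimum, and 32 of these were higher in PC9, none in MDA231, 2 were close and 1 was neither. Their median difference was 4.15, against -0.02 over all genes. The other 7 were listed in the PC9 table only, among them GRHL2, an epithelial transcription factor (105 and 105 RPM), and RAB25, an epithelial trafficking GTPase (94.4 and 88.7 RPM). The parental lines differed likewise, with 31 of the 35 higher in PC9, none in MDA231 and a median of 3.98.

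CDH1, which encodes E-cadherin, the cadherin of adherens junctions, stood at 462 and 470 RPM in PC9 LeptoM and at 0.229 and 0.216 RPM in MDA231 LeptoM. Its groups were far apart, with a log2 difference of 9.95 (SE 0.10, adjusted p = 1.21e-14). KRT7, a keratin of simple epithelia, stood at 3022 and 2909 RPM in PC9 and at 6.09 and 5.51 RPM in MDA231, a difference of 8.94. Other simple keratins were higher in PC9 but well expressed in MDA231 too. KRT8 read 7082 and 6749 RPM against 228 and 196 RPM (5.03), KRT18 differed by 4.01 and KRT19 by 3.63. ESRP1, the epithelial splicing regulator, differed by 8.84, and EPCAM, the epithelial adhesion molecule, by 5.23 with 9.16 and 9.92 RPM left in MDA231. The close members were DSG2 and EHF. DSG2, a desmosomal cadherin, stood at 330 and 335 RPM in PC9 and at 235 and 250 RPM in MDA231, and EHF, an epithelial ETS factor, at 155 and 151 RPM against 105 and 107 RPM. LAMB3, a laminin-332 chain, was neither called nor close at -0.80 (390 and 382 RPM against 736 and 616 RPM).

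The promoters below are shown because the epithelial genes moved together, and because the E-box letters CAGGTG, which read CACCTG on the other strand, are those that ZEB1 and SNAI proteins are known to bind. They are the epithelial genes of highest difference with these letters in the RefSeq promoter window (GRCh38.p14), printed as the 250 bases before the start, 5′ to 3′ on the gene's strand, with the E-box letters in capitals. ELF3, an epithelial ETS factor (log2 difference 8.69), lies at chr1:202010337-202010586 on the plus strand. SPINT1, a protease inhibitor of epithelia (5.85), lies at chr15:40844227-40844476 on the plus strand, and CRB3, an apical polarity protein (5.39), at chr19:6464021-6464270 on the plus strand. ITGB6, an epithelial integrin (4.78), lies at chr2:160200273-160200522 on the minus strand. JUP, a protein of junctions (4.53), lies at chr17:41785977-41786226 and CLDN7, a tight junction claudin (4.50), at chr17:7262479-7262728, both on the minus strand.
ELF3: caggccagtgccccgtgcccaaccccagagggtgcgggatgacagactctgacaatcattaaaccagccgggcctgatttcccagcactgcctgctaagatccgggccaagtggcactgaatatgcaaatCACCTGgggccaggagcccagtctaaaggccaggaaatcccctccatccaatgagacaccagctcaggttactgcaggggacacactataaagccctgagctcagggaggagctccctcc
SPINT1: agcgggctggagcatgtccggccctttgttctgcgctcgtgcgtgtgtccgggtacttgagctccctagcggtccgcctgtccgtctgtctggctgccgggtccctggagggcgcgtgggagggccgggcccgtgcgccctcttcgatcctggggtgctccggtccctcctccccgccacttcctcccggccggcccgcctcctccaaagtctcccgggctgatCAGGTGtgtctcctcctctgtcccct
CRB3: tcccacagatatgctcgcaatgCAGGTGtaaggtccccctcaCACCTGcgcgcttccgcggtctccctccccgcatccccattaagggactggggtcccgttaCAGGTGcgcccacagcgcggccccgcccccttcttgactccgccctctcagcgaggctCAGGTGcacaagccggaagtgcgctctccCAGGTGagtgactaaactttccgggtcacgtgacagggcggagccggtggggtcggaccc
ITGB6: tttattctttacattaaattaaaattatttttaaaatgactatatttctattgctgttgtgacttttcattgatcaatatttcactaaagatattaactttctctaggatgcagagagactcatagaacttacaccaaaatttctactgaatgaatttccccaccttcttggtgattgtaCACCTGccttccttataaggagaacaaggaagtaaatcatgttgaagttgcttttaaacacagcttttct
JUP: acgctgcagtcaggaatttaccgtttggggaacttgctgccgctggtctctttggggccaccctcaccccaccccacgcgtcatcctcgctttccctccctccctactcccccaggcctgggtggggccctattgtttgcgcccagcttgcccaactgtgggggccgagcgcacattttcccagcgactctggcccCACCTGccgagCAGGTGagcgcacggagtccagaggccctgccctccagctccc
CLDN7: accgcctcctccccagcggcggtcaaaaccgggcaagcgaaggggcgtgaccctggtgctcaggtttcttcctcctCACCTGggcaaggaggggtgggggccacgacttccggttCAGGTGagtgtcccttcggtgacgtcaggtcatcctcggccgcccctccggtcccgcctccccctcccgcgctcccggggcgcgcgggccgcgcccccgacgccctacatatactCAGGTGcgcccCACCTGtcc
CRB3 held 5 matches in these bases, CLDN7 held 4 with a further one just after the start, JUP held 2, and ELF3, SPINT1 and ITGB6 held 1 each. Over 35093 promoters of 300 bases, counted from 250 before to 50 after the start, 20.6% held the letters on either strand. Only 23 of the 42 epithelial genes (54.8%) had a promoter entry, of which 16 held the letters, so a comparison of the share over the list is void. A match is a description of these letters and not a measured binding site.

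**Figure D3:**
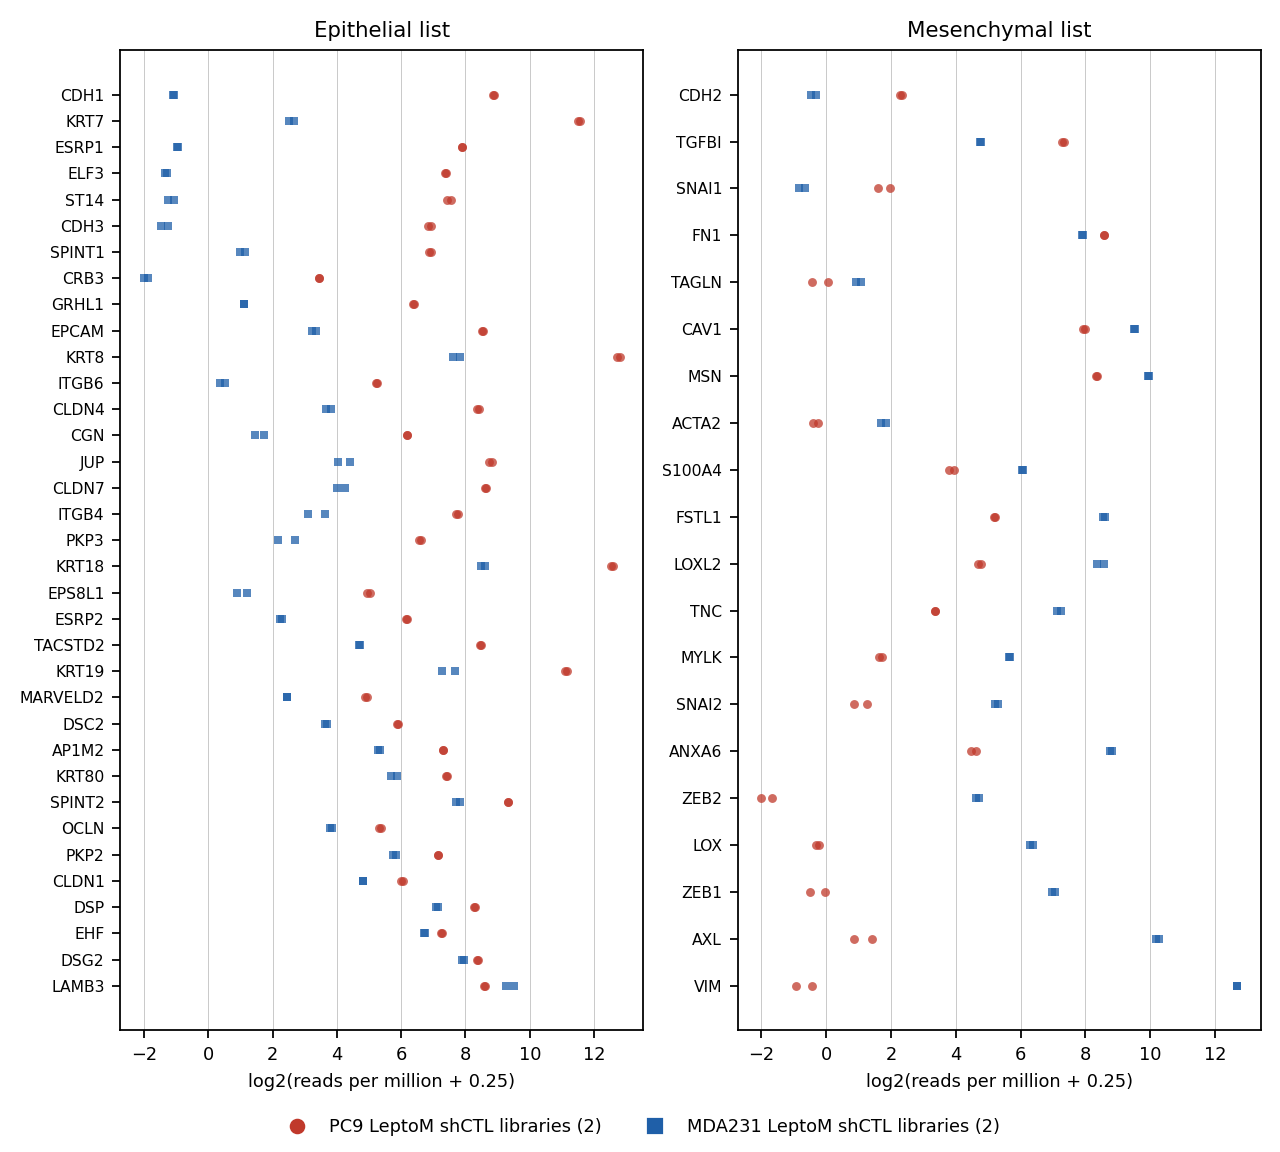
Level of each tested gene of the epithelial list (left) and the mesenchymal list (right) as log2(RPM + 0.25) (x axes), 1 gene per line (y axes), with circles for the 2 PC9 LeptoM shCTL libraries and squares for the 2 MDA231 LeptoM shCTL libraries. PC9 lies to the right for every epithelial gene except LAMB3, and MDA231 lies to the right for every mesenchymal gene except CDH2, TGFBI, SNAI1 and FN1.

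Mesenchymal genes were mostly higher in MDA231 LeptoM. Of 30, 20 were tested, and 16 of these were higher in MDA231, 3 in PC9, none was close and 1 was neither, with a median difference of -3.56. Of the untested genes, 4 were listed in the PC9 table only and 2 in the MDA231 table only. A further 2 were under the minimum and 2 were in neither table. VIM, which encodes the intermediate filament vimentin, stood at 0.274 and 0.494 RPM in PC9 LeptoM and at 6575 and 6546 RPM in MDA231 LeptoM, a difference of -13.36 (SE 0.13, adjusted p = 1.21e-14). ZEB1, a repressor of epithelial genes, stood at 0.464 and 0.730 RPM in PC9 and at 124 and 135 RPM in MDA231 (-7.28, SE 0.22). LOX, a collagen cross-linking enzyme, differed by -6.61, and SNAI2, another repressor of epithelial genes, by -4.17. The 3 genes that went the other way were SNAI1 (2.51), the N-cadherin gene CDH2 (2.69) and the matrix protein gene TGFBI (2.56). CDH2 was low in both lines, at 4.78 and 4.59 RPM in PC9 and at 0.549 and 0.479 RPM in MDA231. FN1, which encodes fibronectin, was neither, at 385 and 385 RPM against 241 and 238 RPM.

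For this list the LeptoM lines were further apart than their parental lines. In the parental lines 4 of the 20 genes were higher in PC9 and 11 in MDA231, with a median of -1.13. The line difference moved toward MDA231 for 12 genes and toward PC9 for none, where over all genes 1642 (12.8%) moved toward MDA231 and 920 (7.16%) toward PC9. AXL, a receptor tyrosine kinase, showed it plainly. It stood at 1.56 and 2.40 RPM in PC9 LeptoM against a mean of 56.7 RPM in the PC9 parental libraries, and at 1228 and 1168 RPM in MDA231 LeptoM against 935 RPM in its parent. The AXL difference went from -4.02 to -9.10, a change of -5.07 (adjusted p = 4.83e-07). VIM read 7.66 RPM in PC9 parental cells and 5279 RPM in MDA231 parental cells, and its difference changed by -3.98. FN1 read 2813 RPM in PC9 parental cells and 198 RPM in MDA231 parental cells, a difference of 3.83 that fell by 3.15 in the LeptoM pair. MSN, which encodes moesin, read 2907 against 1502 RPM in the parental lines, a difference of 0.95 that was not called, and 322 against 993 RPM in the LeptoM lines, a difference of -1.62 that was. A LeptoM library differs from a parental one by the derivation and by the hairpin vector together, and these cannot be told apart.

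Tested genes of the lung list differed in both directions, and the called genes of the mammary list were higher in PC9, the lung line. Of 24 genes of the lung epithelial list, 10 were listed in the PC9 table only and 1 in the MDA231 table only. Among those 10, BPIFB1, a secreted airway protein gene, was the 1 at 10 RPM or more (12.4 and 11.3 RPM). Only 6 were tested, with 2 higher in PC9 and 2 in MDA231. FOXA1, a pioneer factor of epithelia, was higher in PC9 (72 and 76.4 RPM against 3.23 and 3.09 RPM, 4.45), and so was the mucin MUC5B (6.13). FOXA2, a related factor of lung and gut epithelium, was higher in MDA231, at 38.1 and 34.6 RPM against 0.0843 and 0.0941 RPM (-6.75). NKX2-1 and SFTPB, the defining factor and a surfactant protein of distal lung, were at no more than 0.0706 RPM in PC9 LeptoM. Of 8 tested mammary genes, 5 were higher in PC9 and none in MDA231. ESR1, the oestrogen receptor gene, read 8.51 and 8.83 RPM in PC9 and 0.115 and 0.407 RPM in MDA231, and GATA3, a luminal factor, differed by 2.34. XBP1 and TRPS1 of that list were close.

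Genes of the EGFR family and its ligands differed in both directions. EGFR stood at 1123 and 1158 RPM in PC9 LeptoM and at 724 and 714 RPM in MDA231 LeptoM, without overlap, but at 0.66 (SE 0.16, adjusted p = 0.00247) the difference was under the size threshold, and it was neither called nor close. ERBB3, the kinase-impaired partner receptor, was higher in PC9 (5.03), and ERBB2 less so (1.21). The ERBB3 ligand gene NRG1 was higher in MDA231, at 114 and 115 RPM against 0.527 and 0.918 RPM (-6.91). TGFA, an EGFR ligand, was close at 0.33. Over the list of 11 tested genes 4 were higher in PC9 and 5 in MDA231.

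Of 15 other receptor tyrosine kinases, 5 were higher in PC9, 4 in MDA231 and 6 were close. MET, the hepatocyte growth factor receptor, was close at -0.48, at 176 and 184 RPM against 245 and 259 RPM. FGFR3 was higher in PC9 (5.30), while FGFR1 (-3.77), MERTK (-3.72) and AXL were higher in MDA231. Genes that MAPK signalling is known to induce leaned to MDA231. Of 19, 10 were higher there, 1 in PC9 and 6 were close, with a median of -1.24. The feedback inhibitors SPRY2 (-3.30) and DUSP6 (-2.55) were among the 10, with DUSP6 at 67.4 and 68.3 RPM in PC9 and at 393 and 403 RPM in MDA231. FOS, an immediate early gene, was the 1 higher in PC9 (2.19), and CCND1, the cyclin D1 gene, was close.

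Cytokines and NF-kB targets were mostly higher in the line with little LCN2. Of 29 tested genes, 17 were higher in MDA231 LeptoM, 5 in PC9 LeptoM and 5 were close, with a median of -2.11. CSF3, the granulocyte growth factor gene, stood at 0.105 and 0.0706 RPM in PC9 and at 135 and 111 RPM in MDA231 (-8.51). IL1B differed by -6.64, the neutrophil chemokine gene CXCL3 by -6.44 and PTX3, a pattern recognition protein, by -8.21. IL6 read 1.98 and 2.12 RPM against 29.4 and 28.6 RPM (-3.67), and IL8 read 62 and 60 RPM against 703 and 758 RPM (-3.58). PC9 held more of CXCL16 (6.62), IL18 (1.80), TNFAIP2 (3.01) and IL1RN (6.08), the last an antagonist of the IL1 receptor. SOD2 and ICAM1 were close, at 0.11 and -0.69.

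Antigen presentation genes were mostly higher in MDA231 too, with 15 of 25 higher in MDA231, 4 in PC9 and 4 close. The class II chaperone gene CD74 differed by -7.16, and HLA-B by -2.83, while HLA-C was higher in PC9 (1.15), a call that was lost with the GC trend removed. The HLA genes are near-identical in places, and how reads shared between them were counted is not given in the sources used here. Of 32 interferon-stimulated genes, 13 were higher in MDA231, 6 in PC9 and 8 were close. BST2, the virion tether, was higher in PC9 (6.08), OAS2 (-5.71) and IFIT3 (-4.20) in MDA231, and IFITM3 was close. Among 12 complement genes, 5 were higher in PC9, such as the protease genes C1S (3.89) and CFB (2.50), and 2 in MDA231, among them the inhibitor gene CD55 (-1.11). C3, the central component, read 219 and 209 RPM in PC9 LeptoM and 432 and 396 RPM in MDA231 LeptoM, a difference of -0.95 (SE 0.39) that was neither called nor close. The parental lines had it the other way, at 298 against 104 RPM, and the change of -2.49 was called (adjusted p = 0.0031).

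Iron genes differed in both directions. Of 25 tested, 9 were close, a lower share than the 45.1% over all genes, 8 were higher in PC9 and 5 in MDA231, with a median of 0.19. TFRC, the transferrin receptor, stood at 766 and 801 RPM in PC9 and at 776 and 835 RPM in MDA231, overlapping and close at -0.04. FTL, the ferritin light chain gene, was close at 0.58, but FTH1, the heavy chain gene, was higher in PC9 at 2914 and 2872 RPM against 897 and 933 RPM (1.66). SLC40A1, the iron exporter ferroportin, was higher in PC9 at 18.7 and 19.1 RPM against 3.46 and 3.74 RPM (2.32). ACO1, the iron regulatory protein 1 gene, was higher in MDA231 (-3.23), and so was the metal importer gene SLC39A14 (-1.83).

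The antioxidant genes that NRF2 is known to drive were nearly all higher in PC9 LeptoM. The list of 38 also holds the genes of NRF2 itself and of its inhibitor KEAP1. Of the 38, 35 were tested, and 29 of these were higher in PC9, none in MDA231, 5 were close and 1 was neither, with a median of 2.85. NFE2L2, which encodes NRF2, was among the 5 close genes, at 147 and 141 RPM in PC9 against 127 and 138 RPM in MDA231. KEAP1 (0.49) was among them too. AKR1B10, an aldo-keto reductase gene, stood at 1115 and 1161 RPM in PC9 and at 3 reads in each MDA231 library, a difference of 11.79. AKR1C2 differed by 9.84 and the conjugate exporter gene ABCC2 by 7.40. The quinone reductase gene NQO1 read 1471 and 1502 RPM against 191 and 196 RPM (2.94, SE 0.08), and the thioredoxin reductase gene TXNRD1 differed by 1.80. AKR1C genes are near-identical to each other, so their split is uncertain.

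These antioxidant genes were less one-sided in the parental lines. There 19 of the 35 were higher in PC9 and 2 in MDA231, with a median of 1.74. The line difference moved toward PC9 for 15 of the 35 and toward MDA231 for 1, GSTP1. ALDH3A1, an aldehyde dehydrogenase gene, stood at 453 and 435 RPM in PC9 LeptoM and at 0.275 and 0.216 RPM in MDA231 LeptoM, whereas the parental lines read 2.20 and 0.474 RPM. Its difference changed by 7.93 (adjusted p = 1.54e-07). NQO1 went from 698 against 579 RPM in the parental lines to the levels above, a change of 2.67, and TXN, the thioredoxin gene, from -1.0 to 1.25.

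**Figure D4:**
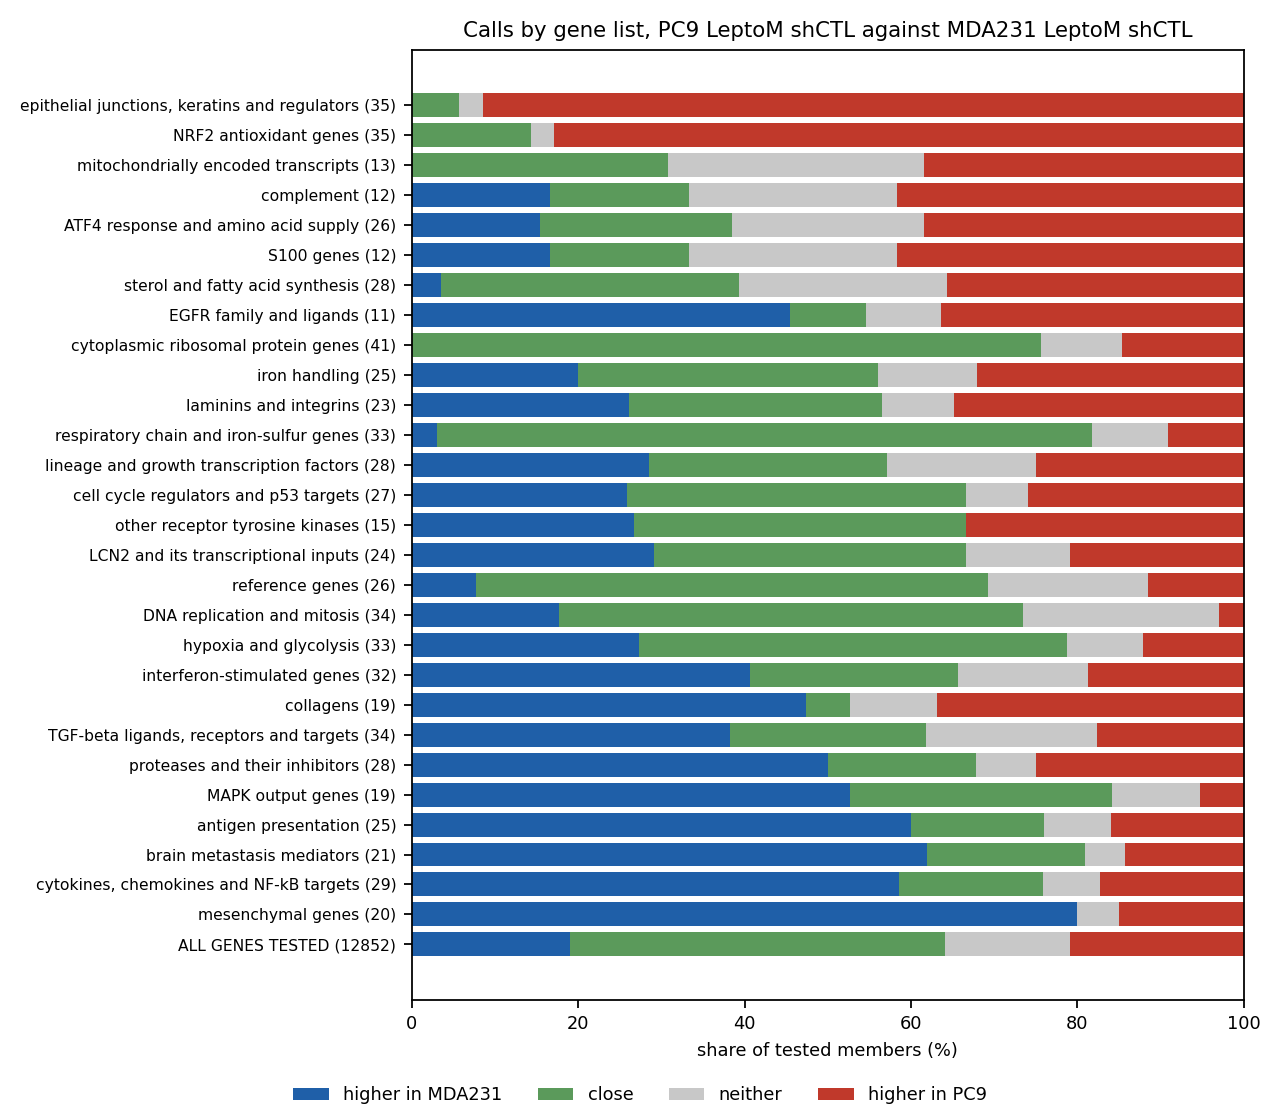
Share of the tested members of a gene list (x axis, percent) that were higher in PC9 LeptoM, higher in MDA231 LeptoM, close or neither, for the larger lists with the number tested in parentheses (y axis) and for all 12852 genes. Lists with 8 tested members or fewer are not drawn. Epithelial and NRF2 genes lie at the PC9 end, mesenchymal genes and cytokines at the MDA231 end, and respiratory chain, ribosomal protein and reference genes hold the broadest close shares.

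Glycolytic enzymes were partly close, and more genes of lipid synthesis were higher in PC9 than in MDA231. Of 33 hypoxia and glycolysis genes, 17 were close, near the share over all genes (45.1%), 9 were higher in MDA231 and 4 in PC9. The aldolase genes ALDOA (1.32) and ALDOC (1.40) were higher in PC9, and the enolase gene ENO1 (-1.10) in MDA231. LDHA, the lactate dehydrogenase gene, read 2446 and 2509 RPM against 2521 and 2683 RPM, close at -0.07. The lactate transporter gene SLC16A1 was higher in PC9 at 144 and 155 RPM against 0.572 and 0.575 RPM (7.50), while SLC16A3, another lactate transporter gene, was neither at -0.31. The hypoxia-induced genes ADM (-2.97) and BNIP3 (-2.47) were higher in MDA231. Of 28 sterol and fatty acid genes, 10 were higher in PC9, 1 in MDA231 and 10 were close. The fatty acid synthase gene FASN (3.13) and the desaturase gene SCD (2.85) were among the 10, and the 1 was another desaturase gene, FADS2 (-3.19). Of 26 genes of the ATF4 response and amino acid supply, 10 were higher in PC9, among them PHGDH of serine synthesis (2.72) and ASS1 of arginine synthesis (4.94), and 4 in MDA231.

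Housekeeping genes and, less so, cell division genes were mostly close. Of 34 replication and mitosis genes, 19 were close, 6 were higher in MDA231 and 1 in PC9. MKI67, the proliferation marker, was close at -0.59 (453 and 457 RPM against 690 and 683 RPM), and TOP2A and RRM2 were close too. Of 33 nuclear respiratory chain and iron-sulfur genes 26 were close, of 41 cytoplasmic ribosomal protein genes 31 were close, and of 26 reference genes 16 were close. All of these shares are above the 45.1% close over all genes. Among highly expressed close genes were EEF1A1, a translation elongation factor gene (5220 and 5067 RPM against 6295 and 6649 RPM), the chaperone gene HSP90AA1 (0.70) and ACTB, whose libraries overlapped (0.05). CD44, the hyaluronan receptor gene, was close at 0.30, at 2084 and 2104 RPM against 1642 and 1767 RPM. Genes often used to scale expression were not all alike. GAPDH (1.31) and EEF2 (1.89) were higher in PC9, and TUBB (-1.5) and CALR (-1.35) in MDA231.

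Among secreted factors and proteases, different members were higher in each line. Of 28 proteases and inhibitors, 14 were higher in MDA231 and 7 in PC9. MMP1, interstitial collagenase, stood at 0.0632 and 0.0706 RPM in PC9, 3 reads in each library, and at 1869 and 1943 RPM in MDA231 (-12.55). MMP14, the membrane-bound collagenase gene, differed by -7.22 and the urokinase receptor gene PLAUR by -2.52. PC9 held more of the lysosomal cathepsin gene CTSD (1.82), of ADAM12 (5.09) and of MMP15 (4.08). Of 34 TGF-beta genes, 13 were higher in MDA231, 6 in PC9 and 8 were close. The activin subunit genes INHBA (1.78) and INHBB (3.31) and the latent binding protein gene LTBP3 (5.57) were higher in PC9. TGFB2 (-4.25) and the activin antagonist gene FST (-5.75) were higher in MDA231, as were CTGF (-6.77) and CYR61 (-4.42), which encode matricellular proteins. Of 21 genes that earlier work has tied to brain metastasis, 13 were higher in MDA231, 3 in PC9 and 4 were close. The 3 were PCDH7 (4.24), a protocadherin gene, FSCN1 (2.76) and the adhesion molecule gene L1CAM (2.28).

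Adhesion and matrix genes were mixed. Of 23 laminin and integrin genes, 8 were higher in PC9, 6 in MDA231 and 7 were close, with the laminin gene LAMA5 (3.04) and the integrin gene ITGB5 (2.71) on the PC9 side and ITGA1 (-2.25) and ITGA5 (-1.38) on the MDA231 side. ITGA3 was close at -0.02. Of 19 collagen genes, 7 were higher in PC9, 9 in MDA231 and only 1, COL4A1, was close. Of 28 lineage and growth transcription factors, 7 were higher in PC9, such as KLF5 (1.98) and GATA2 (2.26), 8 in MDA231, such as ETS1 (-4.68) and RUNX2 (-3.12), and 8 were close, such as YAP1 (0.08) and HMGA1 (0.17). Of 27 cell cycle regulators and p53 targets, 7 were higher in each line and 11 were close, near the shares over all genes. Those shares were 20.8% higher in PC9, 19% higher in MDA231 and 45.1% close, and the other counts of this paragraph are to be read beside them too. All 7 tested mucin and CEACAM genes were called, 6 higher in PC9 and 1 in MDA231. Of 12 S100 genes 5 were higher in PC9 and 2 in MDA231. Of 4 tested cancer-testis genes 3 were higher in PC9. MAGEA6 read 139 and 137 RPM in PC9 LeptoM and 23.5 and 22.7 RPM in MDA231 LeptoM, where its parent read 0.129 RPM. MAGEA genes share long stretches of sequence, so reads may be split between them. Of 13 mitochondrially encoded transcripts 5 were higher in PC9, none in MDA231, 4 were close and 4 were neither. The 13 summed to 25700 and 27400 RPM in PC9 LeptoM and to 13570 and 15070 RPM in MDA231 LeptoM. Of the 5, MT-ND2, MT-ND4 and MT-CO3 came under the size threshold when MDA231 LeptoM control replicate 1 was left out. Their lowest values over all alternatives were 0.95, 0.93 and 0.99.

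A stricter rule picked genes that 1 line expressed and the other hardly did. With both libraries of a line at 10 RPM or more and both of the other under 0.1 RPM, 50 genes were specific to PC9 LeptoM and 39 to MDA231 LeptoM. The levels that chose them are a description and not a test. The LCN2 hairpin libraries, which the rule did not use, were 4 per line. All 50 and all 39 genes were apart there without overlap, where over all tested genes 31.3% had every PC9 library above every MDA231 library and 33.2% the reverse. In those libraries 36 of the 50 and 35 of the 39 were at 10 RPM or more in every library of their line and under 1 RPM in every one of the other.

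Among the PC9-specific genes were S100A14, an S100 protein gene of epithelia, at 348 and 342 RPM with 4 reads in all in MDA231, and AKR1B10. TRIM29, an epithelial TRIM protein gene, stood at 112 and 103 RPM with 0 reads in both MDA231 libraries, at least 1532-fold higher in PC9 against a floor of 3 reads per library. SPP1, the osteopontin gene, stood at 54.1 and 55.2 RPM with 1 read in MDA231, a ratio of 4666 with a 95% counting interval of 837 to 1.84e+05. On the MDA231 side MMP1 led. SHISA2, a gene whose product retains receptors in the endoplasmic reticulum, stood at 116 and 122 RPM with 0 reads in PC9, at least 1778-fold higher. PKIA, an inhibitor of protein kinase A, stood at 48.6 and 50.3 RPM with 0 reads, at least 739-fold higher. GPR116, an adhesion receptor gene, stood at 175 and 179 RPM with 3 reads in PC9, a ratio of 5307 with an interval of 1816 to 2.57e+04. CDH4, the R-cadherin gene, stood at 84.2 and 70.8 RPM. In all, 8 of the 50 and 6 of the 39 had 0 reads in the other line, and none had more than 8.

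Most of these genes were already on in the parent of the same line. A parental mean of 10 RPM or more was held by 42 of the 50 and by 29 of the 39. NGFR, the low-affinity neurotrophin receptor gene, was the 1 gene under 1 RPM there, at 34.9 and 28.5 RPM in MDA231 LeptoM and at 0.69 RPM in MDA231 parental cells. In the parent of the other line, 6 of the 50 and 7 of the 39 reached 1 RPM or more. MFHAS1, a leucine-rich repeat protein gene, had 0 reads in both MDA231 LeptoM control libraries and in the 4 with LCN2 hairpins, against 12.97 RPM in MDA231 parental cells and 26.7 and 26.8 RPM in PC9 LeptoM. PAX9, a developmental transcription factor gene, had 0 reads in MDA231 LeptoM and 1.55 RPM in its parent, and TMLHE, a carnitine synthesis gene, had 2 reads and 8.19 RPM. In bulk libraries fewer cells that express a gene and less RNA per cell cannot be told apart. NGFR, MFHAS1, PAX9 and TMLHE were chosen after their values were seen.

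Beyond the genes tested, 2897 genes were listed in the PC9 table only and 1397 in the MDA231 table only, because each table leaves out genes with few reads in its own line. Both LeptoM control libraries read 10 RPM or more for 162 of the former and 83 of the latter. They have no test, since the other table holds no value. In PC9 they included the protease gene KLK6 (1265 and 1204 RPM), the calgranulin gene S100A9 (1280 and 1341 RPM), the epithelial adhesion gene CEACAM6 (883 and 865 RPM) and FXYD3 (310 and 308 RPM). CEACAM6 and FXYD3 were lower in PC9 parental cells, at 113 and 29.3 RPM. In MDA231 they included the matrix protease gene ADAMTS1 (193 and 193 RPM), the axon guidance gene SLIT2 (163 and 170 RPM) and the mesenchymal cadherin gene CDH11 (120 and 126 RPM), which read 8.06 RPM in MDA231 parental cells.

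Line differences were largely those of the parental lines, with a sizeable remainder. In the parental lines 3263 genes (25.4%) were higher in PC9 and 2348 (18.3%) in MDA231. Both pairs called 2162 genes higher in PC9, 80.7% of the LeptoM calls and 66.3% of the parental ones, and 1632 higher in MDA231, 66.7% and 69.5%. The direction was opposite for 57 genes. A change past the size threshold follows from that choice, and it was called for each of these 57. Of the genes close in the parental lines, 5365 in all, 3951 were close in the LeptoM lines too. A further 950 genes were called in the parental pair and close in the LeptoM pair, with the change itself called for 492 of them. In turn 751 genes were called in the LeptoM pair and close in the parental pair, with the change called for 397. Leaving out MDA231 parental replicate 1 raised the genes whose difference moved toward MDA231 from 1642 to 2320, and leaving out replicate 2 lowered them to 1385.

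**Figure D5:**
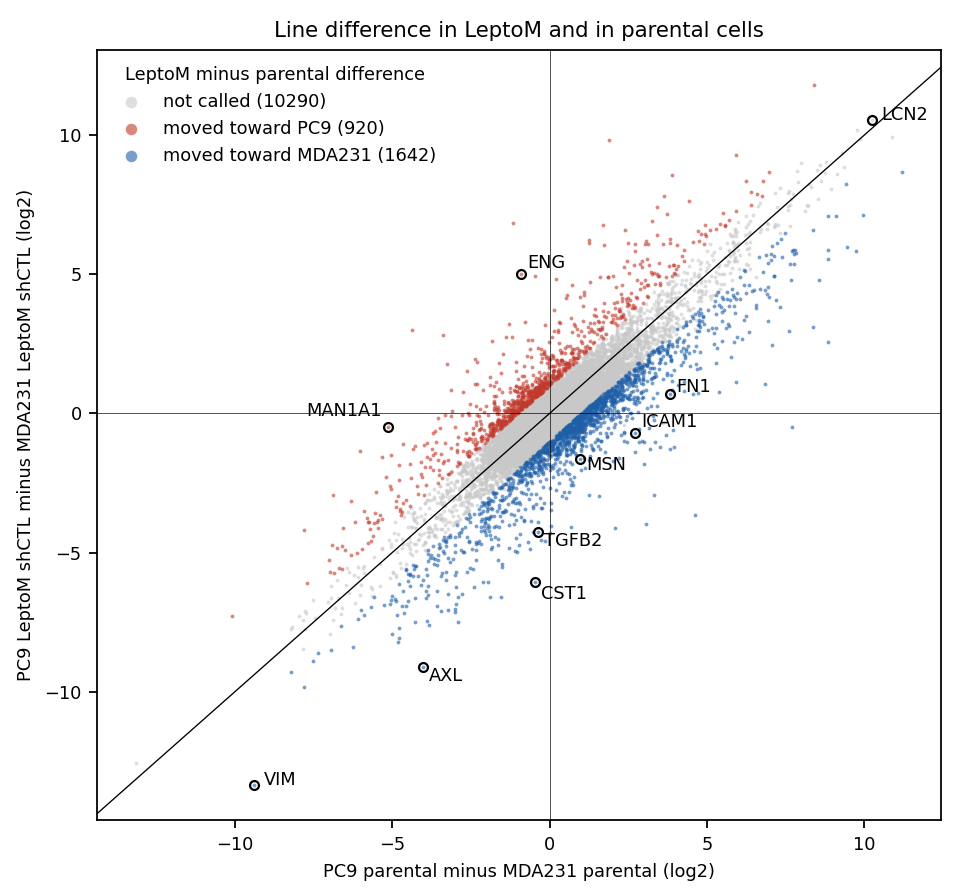
Log2 difference PC9 minus MDA231 in the parental lines (x axis) and in the LeptoM lines (y axis), 1 point per gene for 12852 genes, coloured where the change between them was called toward PC9 (920) or toward MDA231 (1642), with the line of equal differences. LCN2 lies near that line, ENG and MAN1A1 above it, and VIM, AXL, CST1, TGFB2, MSN, FN1 and ICAM1 below it.

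Some genes parted in the LeptoM lines. ENG, the endoglin gene, a TGF-beta co-receptor, read 38.8 and 38.2 RPM in PC9 LeptoM and 1.14 and 0.766 RPM in MDA231 LeptoM, while the parental lines read 27.5 and 53.6 RPM. Its line difference changed by 5.92 (adjusted p = 6.86e-07). TGFB2 parted the other way, with 3.35 and 4.07 RPM in PC9 LeptoM and 73.5 and 76.6 RPM in MDA231 LeptoM against 64.5 and 82.9 RPM in the parents. CST1, a cystatin gene, was at 0.611 and 0.494 RPM in PC9 LeptoM and at 53.4 and 52.2 RPM in MDA231 LeptoM, with both parents under 1 RPM. Others came together. MAN1A1, a mannosidase gene of glycan trimming, read 13.7 and 14.9 RPM against 19.5 and 21 RPM in the LeptoM lines, close, while the parents read 0.214 and 15.6 RPM. TGM2, the tissue transglutaminase gene, read 479 and 454 RPM against 585 and 510 RPM, close, while the parents read 1460 and 149 RPM. WNT5A, a Wnt ligand gene, read 23.2 and 26.5 RPM against 21.9 and 25 RPM with overlap, while the parents read 1.34 and 13.2 RPM.

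Markers of other cell types were mostly untested or low, with a few exceptions. Of 17 markers of macrophages, granulocytes and lymphocytes 4 were tested, with 3 higher in PC9, and their sum was 18.5 and 19.3 RPM in PC9 and 6.11 and 5.01 RPM in MDA231. PTPRC, the pan-leukocyte gene, averaged 0.378 and 0.0932 RPM, under the minimum, and CD3E and SPI1 were listed in neither table. S100A8 and S100A9, granulocyte genes that epithelial cells can also express, were listed for PC9 only, S100A8 at 194 and 198 RPM. Of 17 meningeal and choroid plexus markers 4 were tested and 3 were higher in PC9. Of their sum of 371 and 375 RPM in PC9, against 22.4 and 24.2 RPM in MDA231, CRABP2, a retinoic acid binding protein gene, made up 330 and 334 RPM. TTR, OTX2, DCN and LUM were listed in neither table, and 6 others were listed in the PC9 table only. CLIC6 was the 1 listed in the MDA231 table only, at 9.87 and 9.05 RPM against 3.36 RPM in MDA231 parental cells. Of 19 neuron and glia markers 5 were tested, with 2 higher in PC9 and 1 in MDA231. Of 8 endothelial markers 2 were tested. CDH5, the VE-cadherin gene, was higher in PC9 at 24.2 and 23.6 RPM, and ESAM in MDA231 at 175 and 165 RPM. TIE1 was listed in the MDA231 table only, at 11.45 and 10.66 RPM against 0.259 RPM in MDA231 parental cells. Another 1 was listed in the PC9 table only, and 4, among them PECAM1, in neither table. The part of any of these in the differences above was not tested.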

How the data were processed

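RNA was measured in 16 libraries of 8 groups, 2 per group. The deposited values are a signal: gene counts that the authors divided by size factors, separately for each line, and per the submitters' processing notes the tools were HTSeq 0.5.3 and DESeq2 1.22.1 and the build hg19. The aligner, gene annotation and strand setting of the counting are not given in the sources used here. Whole reads were recovered from the deposited steps (100% of values within 0.01 of a whole number), rows naming no gene were left out (32.3 to 57.6% of gene reads in the PC9 table, the most in parental replicate 2), and reads were scaled to 1000000 gene reads per library (RPM). Genes listed in both tables with a mean of at least 1 RPM over the 4 control libraries were fitted with limma 3.58.1 (trend) on log2(RPM + 0.25) over all 8 groups, without a replicate block (8 residual and 3.56 prior degrees of freedom), and p-values were adjusted by Benjamini-Hochberg over 12852 genes. The fits were tested on simulated data. The test over reads was run with edgeR 4.0.16 and DESeq2 1.42.0 as alternatives, beside other scalings, pseudocounts, minimums, a GC trend and left-out libraries. The 2 replicates of a group differed by more than sampling noise (chi-square per degree of freedom 3.06 in PC9 LeptoM and 11.3 in MDA231 LeptoM).

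The comparison and its 36 gene lists were chosen with earlier results of these data known. Named are LCN2, the line-specific, one-table and close genes of highest level, up to 4 called members of each list in each direction by size, up to 2 close ones, and the genes of largest change between the parental and LeptoM line differences. Other list members named in the text were chosen after their values were seen. List symbols were matched through RefSeq synonyms. XIST, Y-linked, antisense and readthrough genes were left out. Some genes the naming rule would give are not reported here.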

Additional observations from a re-analysis of the deposited data

Results flagged for a closer look

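The line difference changed from the parental to the LeptoM pair, by a limma test of that change, for each of the genes below, given as the change in log2 difference (positive toward PC9). The lines parted toward PC9 for ENG (5.92), PLCB4 (5.41), NRCAM (4.07), GSTM3 (3.91), TRIM59 (3.70), PIP5K1B (3.61) and a gene listed as 1-Mar (3.34), a symbol altered by spreadsheet software that 2 identifiers share. They parted toward MDA231 for CST1 (-5.58), NUAK1 (-4.76), ITGA10 (-4.28), CST4 (-4.24), NR2F1 (-3.92), TGFB2 (-3.89), ZNF462 (-3.73) and PID1 (-3.73). They came together, ending close, for MAN1A1 (4.63), TGM2 (-3.56), ICAM1 (-3.40), WNT5A (3.18), ZNF528 (3.07), EFEMP1 (-3.04), LETM2 (3.0) and MTRNR2L12 (-2.96). In the LeptoM pair MAN1A1 and ICAM1 were no longer close under 3 alternatives each, and EFEMP1, LETM2 and MTRNR2L12 under 1 each, mostly with a control library left out. Their changes stayed called throughout. PIP5K1B had 0 reads in MDA231 parental cells, and its change was 1.99 and not called with DESeq2 and -0.40, the other direction, with edgeR. CST1 and CST4 are near-identical paralogs, and MTRNR2L12 is a nuclear copy of a mitochondrial gene, so their counts may share reads with other genes.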

How the results depend on the processing

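No count moved by over 1.5 times under any alternative run. Over the alternatives other than left-out libraries, genes higher in PC9 LeptoM numbered 2015 to 3132, higher in MDA231 LeptoM 1966 to 2743 and close 5269 to 7752. Leaving out single libraries gave 2564 to 2859, 2350 to 2524 and 5113 to 6131. The replicate block gave 2679, 2443 and 5772, with 920 genes whose difference moved toward PC9 from parental to LeptoM and 1636 toward MDA231. Across genes, replicate 1 minus replicate 2 of PC9 correlated with that of MDA231 at 0.181 in the control libraries and at -0.549 in the parental ones. These deviations also followed GC content in the control libraries, so the correlations cannot settle whether the replicate numbers pair the samples. A block with the parental numbers crossed, chosen after seeing the data, gave 2677 and 2445. Of 338 values for named genes, 25 changed under some alternative, by losing a call, by no longer being close or by reversing. The 1 that reversed was the PIP5K1B change, at -0.40 with edgeR. HLA-C, PFKL, CDT1, S100A11, ISCU and RPS2 lost their call in the LeptoM comparison with the GC trend removed.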
